A study of Rattus norvegicus with 8 samples.

Results

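Transcripts of red blood cells were followed in the medial thalamus of 8 rats as a readout of blood in the dissected tissue. The genes were taken by the names of the array design. These were all names beginning with Hba or Hbb, together with Alas2 and Slc4a1. This gave 3 genes and 4 probes, of 35561 names and 41012 probes on the array: 1 probe for Hbb, 1 for Alas2 and 2 for Slc4a1. No probe carried a name beginning with Hba. The array does hold an alpha-globin probe under the name LOC287167, which the RefSeq accession links to Hba-a3, and a second beta-globin probe under the name MGC72973, linked to Hbb-b1. Both stand outside the naming rule and are given below as other globins.

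The animals were male Sprague-Dawley rats of 277 g, anaesthetised with urethane and carrying an inflatable cuff around the trachea. In 4 occlusion animals the cuff blocked 2 to 4 breaths at a time with at least 15 breaths of recovery, repeated over 10 min, and the brain was taken at once. In 4 control animals, which had the same surgery and anaesthetic, the cuff stayed deflated and the brain was taken 70 min after setup. For occlusion animals the labels give no such interval, so occlusion and time under anaesthesia cannot be told apart. Each animal's RNA (Cy5) was hybridised with a pool of all 8 animals (Cy3) on an oligonucleotide array of its own, with the dyes never swapped. A log2 ratio of 0 therefore means the level of the pool. Of the 2 slides, slide 1 held occlusion 1 and 2 with control 3 and 4, and slide 2 held the remaining animals. Between 68.3% and 80.2% of spots per array were well above background in Cy5, and the small number of arrays limits the precision. The labels do not mention perfusion before dissection.

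Adult haemoglobin is a tetramer of alpha and beta chains, each holding a haem group that binds oxygen. Red cells lack a nucleus, and young red cells (reticulocytes) still carry globin mRNA and a few other messages from their marrow precursors. In brain pieces that hold blood, these messages come with the vessels. Globin mRNA has also been found at low levels in some neurons and glia. In bulk tissue, fewer red cells and less RNA per cell cannot be told apart.

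Hbb encodes a beta chain of haemoglobin. Its probe lies at chr1:161701424-161701483 of rn3, the build named in the file headers, on the minus strand. Alas2 encodes the erythroid enzyme for the first step of haem synthesis, and its probe lies at chrX:39863822-39863881 on the plus strand. Slc4a1 encodes band 3, the anion exchanger of the red cell membrane, and its probes lie at chr10:91469722-91469781 and chr10:91473198-91473770 on the minus strand. In red cell precursors, genes of this kind are switched on by the factors GATA1 and KLF1. For that reason the 250 bases before the start are shown for Hbb, for the alpha-globin gene Hba-a3 and for Alas2, as RefSeq gives them on GRCr8. They come from chr1:167663722-167663971 (minus strand), chr10:15816944-15817193 (minus strand) and chrX:22895200-22895449 (plus strand). Capitals mark matches to CCACACCC, a word bound by KLF1, to the TATAAA word, or to a GATA word. The GATA words were AGATAA, then also AGATAG, with TGATAA beside them, and lastly TGATAG. Each word was searched on both strands.
Hbb: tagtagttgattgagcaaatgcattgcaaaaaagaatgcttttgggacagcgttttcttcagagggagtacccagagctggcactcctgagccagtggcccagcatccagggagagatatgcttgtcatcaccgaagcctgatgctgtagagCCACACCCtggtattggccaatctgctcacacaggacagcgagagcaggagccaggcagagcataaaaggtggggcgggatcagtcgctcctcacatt
Hba-a3: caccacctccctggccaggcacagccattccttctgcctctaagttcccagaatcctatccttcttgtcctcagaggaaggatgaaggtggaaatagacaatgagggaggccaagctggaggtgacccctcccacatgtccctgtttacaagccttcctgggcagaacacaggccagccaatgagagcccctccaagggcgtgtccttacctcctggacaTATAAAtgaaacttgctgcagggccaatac
Alas2: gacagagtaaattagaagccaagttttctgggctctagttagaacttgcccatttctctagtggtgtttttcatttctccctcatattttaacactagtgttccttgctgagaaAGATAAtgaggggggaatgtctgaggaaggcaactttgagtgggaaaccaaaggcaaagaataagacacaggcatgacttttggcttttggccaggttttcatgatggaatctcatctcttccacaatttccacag
The Hbb window held 1 match to CCACACCC, which begins 98 bases before the start. CCACACCC occurs in 2.84% of 33469 RefSeq windows of this length. The Hba-a3 window held 1 TATAAA, a word found in 12.9% of windows. Alas2 held 1 AGATAA, and 27.0% of windows hold at least 1 of the 4 GATA words. The Alas2 window lies inside the span RefSeq gives the gene on GRCr8 (chrX:22890650-22914046), so it precedes the start of 1 transcript and not the outermost start. These matches describe the letters only.

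All 3 genes were detected in the tissue, and 3 of the 4 probes could be tested. The Hbb, Alas2 and first Slc4a1 probes were well above background in both channels on 8 of 8 arrays, and saturated on none. The second Slc4a1 probe (A_43_P11502) was not well above background on any array, at 69.7 to 104 units in the Cy5 channel, and gives no fold here. A further beta-globin probe, named only X15009 in the design, was also not well above background on any array.

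For Hbb the raw signals separated the animals, while the raw pool signal stayed nearly level. For Hbb, the mean Cy5 signal was 471, 1402, 863 and 1178 scanner units in occlusion 1 to 4, against 961, 1266, 1346 and 2284 units in control 1 to 4. The lowest was occlusion 1 and the highest control 4, and the other 6 animals lay between them with the groups intermixed. The pool read 626 to 741 units at the same spot on the 8 arrays, a span of 1.18-fold, where the animals spanned 4.85-fold. Raw units are not adjusted for the brightness of an array. After background correction and centring each array on its median, the log2 range was 0.89 for the pool and 2.25 for the animals.

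Alas2 gave the same ends. Its Cy5 signal was 867, 2388, 1511 and 1781 units in occlusion 1 to 4, against 1707, 2482, 2149 and 2927 units in control 1 to 4. The pool read 916 to 1115 units, a 1.22-fold span, against 3.38-fold among the animals. After correction and centring, the Alas2 log2 range was 1.01 for the pool and 1.77 for the animals. Slc4a1 was dim, with 127, 197, 126 and 184 units in occlusion 1 to 4, against 185, 201, 180 and 217 units in control 1 to 4. Its 1.71-fold span among animals stood beside 1.41-fold for the pool, so the animals stood out less from the pool at this probe.

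**Figure D1:**
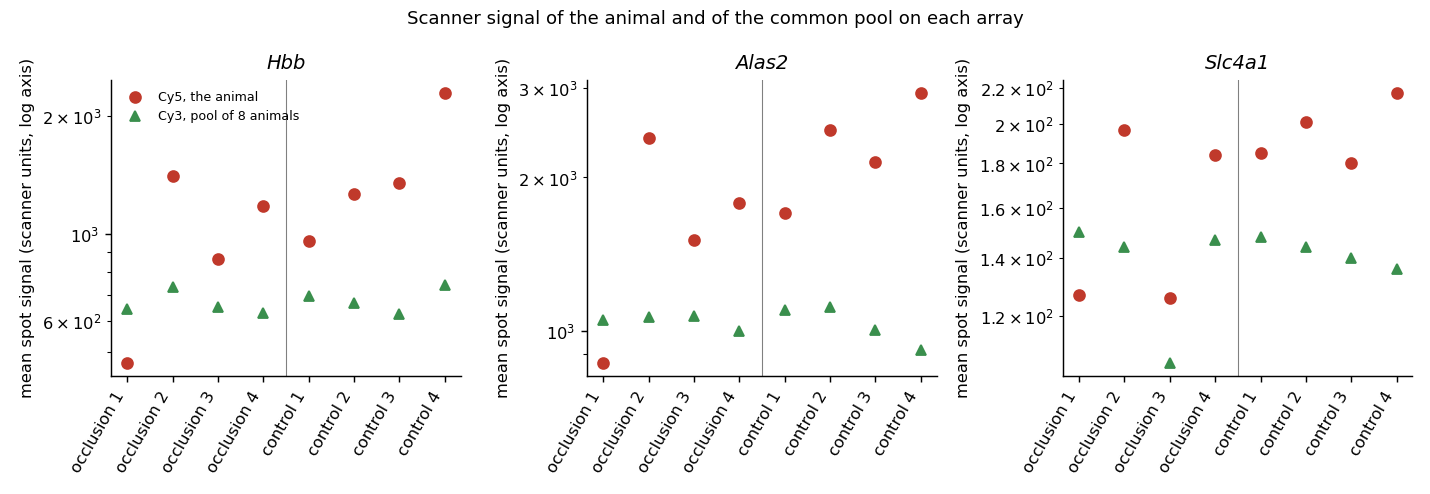
Mean spot signal (scanner units, log axis) of Hbb, Alas2 and Slc4a1 (probe A_44_P289637) on each array, occlusion animals left and control animals right. Circles are the animal (Cy5) and triangles the common pool (Cy3). For Hbb the pool stays between 626 and 741 units while the animals run between 471 and 2284.

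After normalisation occlusion 1 and control 4 were at the ends for all 3 genes, while the order of the other animals changed. The Hbb log2 ratio was -1.10, -0.06, -0.09 and 0.23 in occlusion 1 to 4, against -0.20, 0.04, 0.14 and 0.61 in control 1 to 4. In words, occlusion 1 lay far below the pool for Hbb, control 4 lay above it, and the other 6 lay nearer to it. Alas2 was -1.06, 0.12, -0.08 and 0.12 in occlusion 1 to 4, against -0.08, 0.21, 0.09 and 0.65 in control 1 to 4, with the same animals at the ends. Slc4a1 was -0.42, -0.18, 0.00 and -0.11 in occlusion 1 to 4, against -0.24, -0.12, -0.27 and 0.05 in control 1 to 4. The groups overlapped for all 3 genes.

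**Figure D2:**
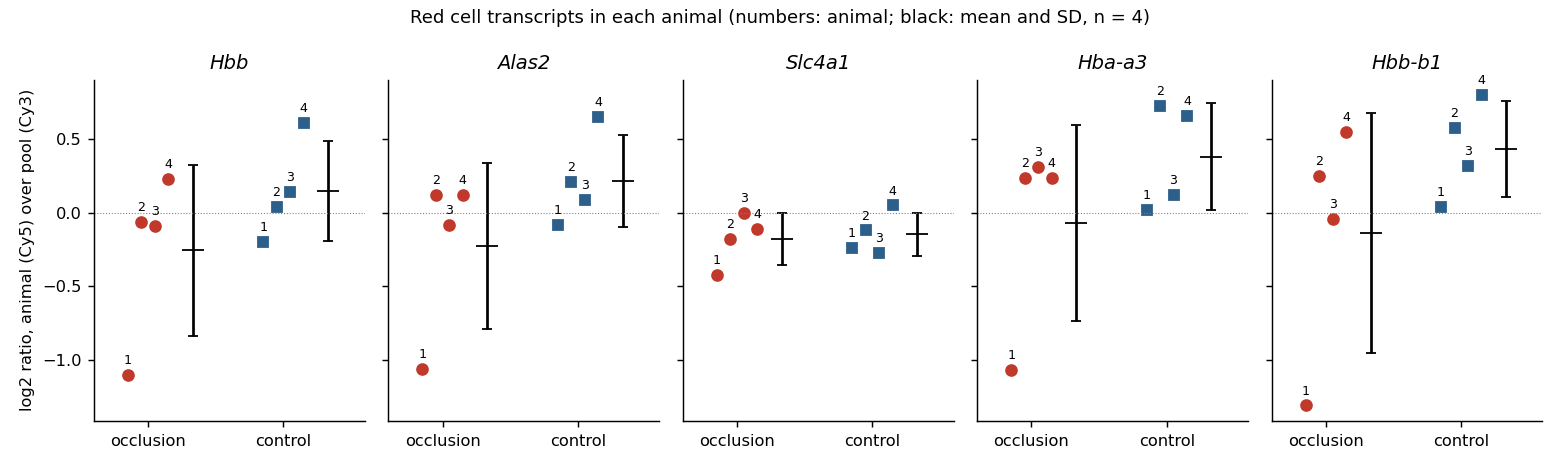
Log2 ratio of animal over pool for the 3 red cell genes and for the other globins Hba-a3 and Hbb-b1, occlusion left and control right in each panel. Points are animals, labelled by number, and black bars the mean and SD of 4. Occlusion 1 is the lowest point in every panel, at -1.10 for Hbb and -1.06 for Alas2.

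Setting occlusion against control asks whether red cell transcripts in thalamic RNA differed with the blocked breaths. None of the 3 genes passed. Mean Hbb was -0.26 ± 0.58 in occluded rats and 0.15 ± 0.34 in control rats (SD, n = 4 each), a log2 difference of -0.40 with a 95% interval of -1.05 to 0.24 (limma adjusted p = 0.977 over all probes). Mean Alas2 was -0.23 ± 0.56 in occluded rats and 0.22 ± 0.31 in control rats (SD, n = 4 each), a difference of -0.44 with an interval of -1.06 to 0.17 (limma adjusted p = 0.977). Mean Slc4a1 was -0.18 ± 0.17 in occluded rats and -0.15 ± 0.14 in control rats (SD, n = 4 each), a difference of -0.03 with an interval of -0.27 to 0.21 (limma adjusted p = 0.988). Exact two-sided permutation over 70 assignments gave p = 0.343 for Hbb and 0.286 for Alas2, with a larger p for Slc4a1, where 0.0286 is the smallest possible. The intervals of all 3 genes hold 0.

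Of the 3 tested probes, 0 were called, against 0.0% of 31690 probes, and 0 had an unadjusted p under 0.05, against 3.06% (1.25% for lower under occlusion). The groups did not overlap for 0 of the 3, against 2.5% of all probes (1.27% for lower under occlusion). All 3 differences were negative, as were 49.3% over all probes. The median log2 difference of all probes was 0.00.

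The lower means under occlusion rested largely on occlusion 1 and control 4. Without occlusion 1 the difference was -0.12 for Hbb, -0.16 for Alas2 and 0.05 for Slc4a1. Without control 4 it was -0.25, -0.30 and 0.03 for these genes. Both animals lay on slide 1. The difference between the slides was not tested. Within slide 1 Hbb averaged -0.58 under occlusion and 0.38 in controls, a difference of -0.96. Within slide 2 it averaged 0.07 under occlusion and -0.08 in controls, a difference of 0.15. Alas2 differed by -0.84 within slide 1 and by -0.05 within slide 2, and Slc4a1 by -0.18 and 0.12. With slide as a block in the fit, the Hbb difference was -0.40 with a standard error of 0.30 (limma adjusted p = 0.957), and Alas2 and Slc4a1 also did not pass.

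**Figure D3:**
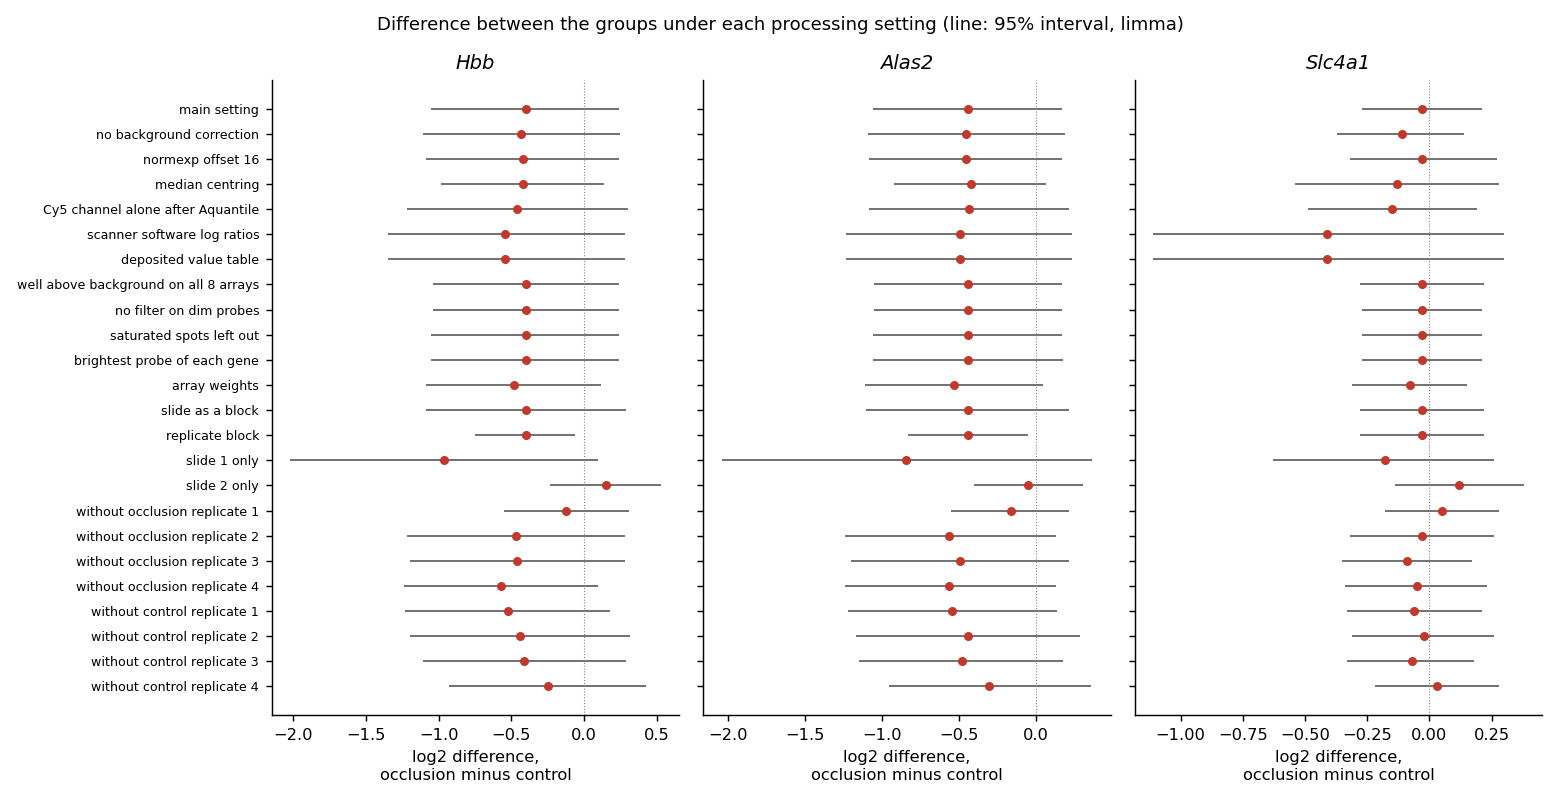
Log2 difference (occlusion minus control) of Hbb, Alas2 and Slc4a1 under the main processing and each alternative, with 95% limma intervals as lines. Hbb runs between -0.96 within slide 1 and 0.15 within slide 2.

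Hbb and Alas2 varied more between animals than most probes did. The SD of the log2 ratio over the 8 animals was 0.49 for Hbb and 0.48 for Alas2, wider than 96.2% and 96.0% of tested probes, whose median was 0.14. For Slc4a1 it was 0.15, wider than 55.6% of probes. In the Cy3 channel, where every array carried the same RNA, the SD of log2 signal was 0.30 for Hbb and 0.32 for Alas2, below the probe median of 0.36. Their Cy5 SDs were 0.70 and 0.66, against a median of 0.43. These single-channel SDs were taken after background correction and after centring each array on its median, but before normalisation by loess. From its lowest to its highest animal, the Hbb ratio spanned 3.28-fold and the Alas2 ratio 3.26-fold.

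The Slc4a1 values differed between processing routes. In the scanner software's own log ratios, which differ in background, offset and dye normalisation together, Slc4a1 stood at -1.60 in occlusion 1 and 0.11 in control 4, against -0.42 and 0.05 after normexp with an offset of 50. Hbb changed less, with -1.46 and 0.66 in the software's ratios for these animals, against -1.10 and 0.61. Occlusion 1 was the lowest animal for all 3 genes on both scales, and control 4 the highest. In occlusion 3 the Slc4a1 ratio was -0.14 in the software's ratios and 0.00 after normexp. The raw Slc4a1 Cy5 signal there, 126 units, was the lowest of the 8 animals. After background correction and centring on the array median it was the highest, at -0.28 against -1.83 to -1.05. The cause of this change was not tested, so the 0.00 is not read as a level. The group difference on the software's ratios was -0.54 for Hbb, -0.49 for Alas2 and -0.41 for Slc4a1, and 0 of these passed (smallest limma adjusted p = 0.967).

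Hbb and Alas2, which lie on different chromosomes and work at different steps of haemoglobin production, moved together over the animals. Pearson's r was 0.98 over 8 animals (exact permutation p = 0.00156, adjusted p = 0.0234 over 15 relations), and Spearman's rho was 0.81 (exact p = 0.0218, adjusted 0.140). After leaving out occlusion 1 and control 4, the farthest from the median for Hbb, r was 0.65 over 6 animals (exact p = 0.176), so the relation rests in large part on them. For Slc4a1 r with Hbb was 0.79 (exact p = 0.0198, adjusted 0.0991) and rho 0.60 (exact p = 0.132, adjusted 0.321), and r was -0.02 without the same 2 animals. Centring on the slide means gave r of 0.98 for Alas2 and 0.80 for Slc4a1, and centring on the group means 0.97 and 0.83. A slide or a group holds only 4 animals, too few for a correlation of its own. All points share the pool and the normalisation of their array.

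**Figure D4:**
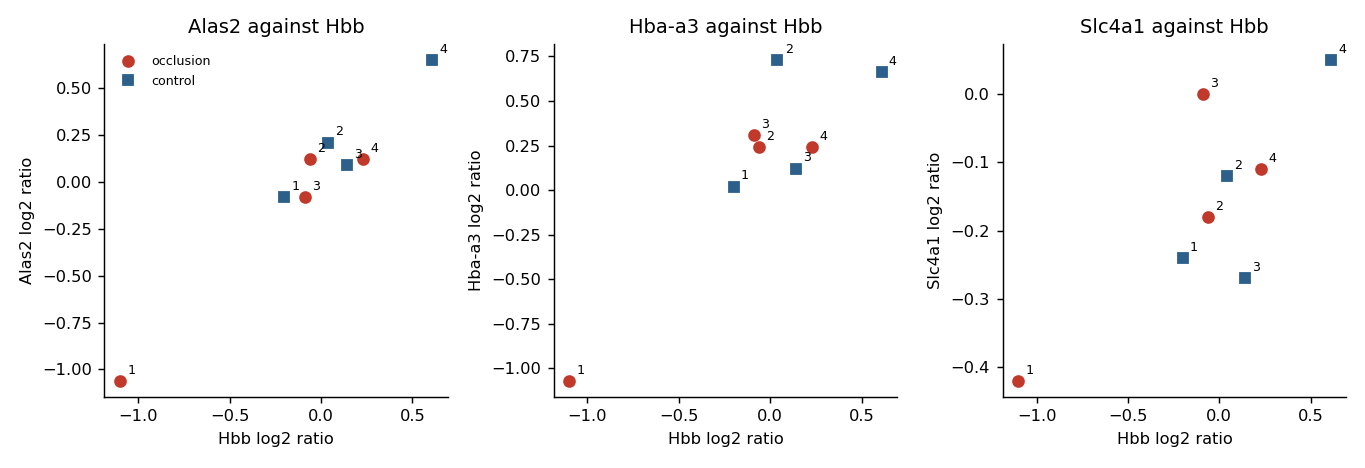
Log2 ratios of Alas2, Hba-a3 and Slc4a1 against Hbb in each animal, occlusion as circles and control as squares, numbered by animal. Occlusion 1 is at the lower left in all 3 panels, and the relation of Alas2 with Hbb has r = 0.98 over 8 animals and 0.65 over the 6 without occlusion 1 and control 4.

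The other globins include the adult alpha chain. The alpha-globin Hba-a3 (LOC287167, chr10:15560180-15560237 of rn3, minus strand) was -1.07, 0.24, 0.31 and 0.24 in occlusion 1 to 4, against 0.02, 0.73, 0.12 and 0.66 in control 1 to 4. The beta-globin Hbb-b1 (MGC72973, chr1:161671970-161672029 of rn3, minus strand) was -1.31, 0.25, -0.04 and 0.55 in occlusion 1 to 4, against 0.04, 0.58, 0.32 and 0.80 in control 1 to 4. Occlusion 1 was again far below the rest, and the 2 differences were -0.45 and -0.57 (limma adjusted p = 0.977 each). The raw pool signal spanned 1.47-fold for Hba-a3 and 1.54-fold for Hbb-b1, against 3.08-fold and 3.54-fold among the animals. On the array of occlusion 1 the raw Cy5 signals were lowest, at 86387 and 40823 units. The raw pool signals there were highest, at 80291 and 46820 units. The part of the pool channel in these low ratios was not tested. Rat alpha and beta globins exist as several near-identical copies, so which copy each probe reads is uncertain. Hba-a3 correlated with Hbb at r = 0.90 (exact p = 0.0148, adjusted 0.0991) and rho = 0.62 (exact p = 0.115, adjusted 0.321), with r of 0.21 over the 6 remaining animals.

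Embryonic and tissue globins were not at the bottom in occlusion 1, apart from Hbg1. Hbg1, a gamma-like globin, was -0.04 in that animal and differed by -0.11 between the groups. Hbe2, an embryonic beta-like globin, ran between 0.10 and 0.44 under occlusion and between 0.18 and 0.57 in controls. Hbe1, another embryonic globin and a dim probe, differed by 0.51, with -1.98 in control 1. Hbq1 (theta) was -0.05 and Mb, the myoglobin of muscle, 0.03 in occlusion 1. Ngb, the globin of neurons, was higher in occlusion 1 than in any other animal, at 0.53 against 0.05 to 0.06 in occlusion 2 to 4 and -0.57 to 0.06 in controls. Cygb, a globin of fibroblasts and other cells, was 0.49 in occlusion 1 and was not measured in occlusion 3. Of the 9 other globins tested, 4 were higher and 5 lower under occlusion, 0 passed, and the median difference was -0.02.

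Of 34 listed genes of the red cell membrane and erythroid lineage, 21 were on the array and 18 could be tested. Of these 18, 10 were higher and 8 lower under occlusion, 0 passed over all probes, and the median log2 difference was 0.01. Eraf, the chaperone of free alpha-globin, came nearest, at -0.77, -0.06, 0.03 and 0.08 in occlusion 1 to 4, against 0.06, 0.44, 0.08 and 0.37 in control 1 to 4 (difference -0.42, standard error 0.19, limma adjusted p = 0.977). Like the globins, it was lowest in occlusion 1. Taking Hbb, Alas2, Slc4a1, Hba-a3, Hbb-b1 and Eraf, 6 of 6 were lowest in occlusion 1 and 4 of 6 highest in control 4, a set assembled after the values were seen. Over all tested probes 9.57% were lowest in occlusion 1 and 10.2% highest in control 4. The 6 were chosen with their values known, and Hbb and Hbb-b1 are closely related beta-globins. Their counts therefore cannot be set against these shares.

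Alas2 opens haem synthesis in red cells, so the other enzymes of that route were read beside it. Of 11 tested genes of haem synthesis, 8 were higher and 3 lower with a median of 0.02, and 0 passed. Alas1, the form of the enzyme in other tissues, was -0.26 in occlusion 1 and lay between 0.04 and 0.27 in the other animals measured, with no value in control 3. Fech, which inserts the iron, differed by 0.08 and Uros by 0.13. Of 15 genes of haem and iron handling, 10 were higher and 5 lower with a median of 0.01, and 0 passed. Groups did not overlap for 1 of the 15, Blvrb, a biliverdin reductase also abundant in red cells, where 2.5% of all probes had such groups. Blvrb was at -0.24, -0.32, -0.27 and -0.20 in occlusion 1 to 4, against -0.10, -0.08, -0.10 and -0.08 in control 1 to 4 (limma adjusted p = 0.977, unadjusted 0.0162). The haem-binding plasma protein Hpx differed by -0.15. Hmox1, which breaks haem down and is induced by it, differed by 0.01. The mean of this list correlated with Hbb at r = -0.81 (exact p = 0.0351, adjusted 0.132) and rho = -0.57 (exact p = 0.151, adjusted 0.321), with r of 0.07 over the 6 animals. Its member Tf, the iron carrier transferrin, which oligodendrocytes also make, reached 0.86 in occlusion 1, with the other 7 animals at -0.14 to 0.27.

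Markers of other cells of blood and vessels were read beside the red cell genes. Of 5 platelet genes tested, 5 were lower under occlusion, with a median of -0.20, or -0.03 without control 3. For example, the chemokine Ppbp differed by -0.20 and the adhesion receptor subunit Gp1bb, which was not measured in control 2, by -0.29. Neutrophil genes had 7 higher and 4 lower, with groups that did not overlap for 2 of 11 genes, Lcn2 at 0.23 and Csf3r at 0.26, where 2.5% of all probes had such groups. Only Cd3d, at -0.08, could be tested among lymphocyte genes. Of 15 endothelial genes 10 were higher and 5 lower with a median of 0.03, with Slc2a1 at 0.26 and Eng at 0.13. In each of these lists 0 genes passed over all probes. Endothelial markers averaged -0.16, -0.13, -0.01 and 0.13 in occlusion 1 to 4, against -0.13, -0.02, -0.03 and -0.02 in control 1 to 4. These markers were lowest in occlusion 1 by a small margin, with occlusion 2 and control 1 close by at -0.13. Their mean correlated with Hbb at r = 0.65 (exact p = 0.0890, adjusted 0.267) and rho = 0.69 (exact p = 0.0694, adjusted 0.260), with r of 0.81 over the 6 animals (exact p = 0.0514). Pericyte and smooth muscle genes had 3 higher and 6 lower with a median of -0.03, with Cspg4 at 0.25 and Anpep at -0.14. None of the 12 list means passed adjustment in its relation with Hbb over the 8 animals, by r or by rho. By rho the strongest were platelets at 0.79 and choroid plexus at -0.79 (exact permutation p = 0.0279, adjusted 0.140 each). Their r was 0.47 and -0.33. Without control 3, haem and iron handling at r = -0.92, platelets at 0.82 and relay neurons at 0.91 passed (exact permutation, adjusted p = 0.0377 each).

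Markers of the tissue itself also differed between animals. Thalamic relay neuron markers averaged -0.36 in occlusion 1, against 0.15 to 0.22 in occlusion 2 to 4 and 0.18 to 0.27 in controls 1, 2 and 4. Control 3 stood apart at -2.02 for relay markers and 1.51 for cortical markers, while its red cell genes lay between the extremes, at 0.14 for Hbb and 0.09 for Alas2. Between the groups, 8 of 8 relay genes were higher under occlusion with a median of 0.36, with Gbx2 at 0.43 and Slc17a6 at 0.76. Without control 3, 1 was higher and 7 lower with a median of -0.20, and Slc17a6 was at -0.03. In cortical markers 8 of 8 were lower with a median of -0.45, with Lmo4 at -0.53 and Nrgn at -0.70. Without control 3, 5 were higher and 3 lower with a median of 0.10, and Nrgn was at -0.02. Choroid plexus genes had 8 of 8 higher with a median of 0.76 (0.40 without control 3, 0.35 without occlusion 3), with Folr1 at 0.49. Groups did not overlap for 1 of the 8, Clic6 at 0.66, where 2.5% of all probes had such groups. Meningeal genes had 2 higher and 10 lower with a median of -0.12, with Dcn at 0.29 and Col1a2 at -0.57. Without control 3, 9 were higher and 3 lower with a median of 0.24, and Col1a2 was at -0.04. In each of these lists 0 genes passed. Without control 3 the Hbb difference was -0.41, and that of Alas2 -0.48. On the array itself, occlusion 1 had 77.1% of spots well above background in Cy5, 423 outlier spots where the range was 136 to 853, and the highest median Cy5 signal over background, 4.67. The part of tissue makeup and of array quality in the red cell values was not tested.

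Among 10114 genes with a symbol, those whose pattern over the 8 animals was most like Hbb were ranked by Pearson's r as a description. Hbb, Alas2 and Slc4a1 were left out of this ranking, and r of Alas2 with Hbb was 0.98. Of the genes ranked, Hbb-b1 came first at 0.967, and Hba-a3 was at rank 14 with 0.897. Cck, the neuropeptide cholecystokinin, followed at 0.964, with -1.33, -0.31, -0.24 and 0.15 in occlusion 1 to 4, against -0.20, -0.06, -0.16 and 0.21 in control 1 to 4. Cnih2, an AMPA receptor partner, had 0.949 and was lowest in occlusion 1 at -1.06. Rps26, Cbr4, Ppia, Mrpl23, Mapre3, Hand1 and Kalrn had 0.917 to 0.933. At the other end, Cep63, Ino80c, Wrnip1, Nova1 and Nedd9 had -0.985 to -0.949. Over 8 animals the extremes of so many genes are large by selection. The 10 most like Hbb had their lowest value in occlusion 1, and the 5 least like it their highest. Without occlusion 1 and control 4, r with Hbb was 0.79 for Hbb-b1, 0.76 for Cck and -0.10 for Cbr4. In occlusion 1, 56 of the 31690 tested probes lay at or below -1, which is 0.177%, the Hbb and Alas2 probes among them.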

How the data were processed

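RNA of the medial thalamus of 8 rats was measured on 2-colour arrays. Per the file headers, the authors extracted spot intensity with Agilent Feature Extraction 9.5.1.1 (design annotated on rn3), and the deposited log10 ratios of Cy5 over Cy3 come from the software's own background-subtracted, dye-normalised signals. The deposited value table held the same log10 ratios, with 45018 of 45018 spots per array matching within 1%. Mean signals were corrected here against median local background by normexp (offset 50) and normalised by loess within arrays, with control and outlier spots at weight 0. Spots of a probe were averaged without outliers. Tests covered the 31690 probes that 4 or more of 8 arrays read well above background in Cy5 and that had 2 or more values per group, with limma 3.58.1 (R 4.3.3), two-sided, and Benjamini-Hochberg adjustment over all of them at a threshold of 0.05. Probes, not genes, were tested, since every red cell probe is reported. The planned globin mean rests on the single Hbb probe, and the planned alpha-globin measure is LOC287167, because no name began with Hba. List genes are represented by their brightest tested probe, found by array name or by RefSeq symbol through the accession. The 10 most and 5 least like Hbb are named, with Hbb, Alas2 and Slc4a1 left out of that ranking. Also named are every red cell probe and, from each list, the 2 genes lowest in unadjusted p. A list gene that this rule selects is not reported here. Hba-a3, Hbb-b1, Hbe1, Hbe2, Hbq1, Mb, Cygb, Alas1, Hmox1 and Tf were singled out after their values were seen. The genes and lists were chosen with earlier results of these data known. List counts without 1 animal, as differences of group means with no test, were added after seeing the data. Replicate numbers in the titles did not pair the animals. The fit was tested on simulated data. Figures were drawn with matplotlib 3.10.9.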

Additional observations from a re-analysis of the deposited data

Results flagged for a closer look

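Within groups of 4 animals, 34 sets of values (the red cell genes, Hba-a3 and the list means) were checked for an animal far from the other 3, and 8 stood apart. Chance gives about 1 in 20 for a single check. The 34 checks share animals and arrays and are not independent, so the 8 cannot be set against that rate. Among red cell genes, Alas2 in occlusion 1 was -1.06, with the other occlusion animals between -0.08 and 0.12, a gap just at the cutoff of the check. Hba-a3 in occlusion 1 was -1.07, with the others between 0.24 and 0.31. The same animal had a mean of -0.36 for thalamic relay markers, where occlusion 2 to 4 lay between 0.15 and 0.22. Control 3 stood apart in 4 list means: relay neurons at -2.02 (0.18 to 0.27 in the other controls), cortical neurons at 1.51 (-0.84 to -0.70), meninges and fibroblasts at 1.02 (-0.56 to -0.45) and platelets at 0.36 (0.03 to 0.08). Control 1 had -0.13 for endothelial markers, with the other controls between -0.03 and -0.02.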

How the results depend on the processing

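No red cell probe passed under any setting fitted. Over all probes 0 were called in each, except 1 without control 3. Probes with an unadjusted p under 0.05 numbered 969, of which 574 were higher and 395 lower. Median centring gave 325 (255 higher, 70 lower), array weights 1595, and the scanner ratios 1134 (422 higher, 712 lower). Leaving out 1 animal gave 565 (without occlusion 1) to 1688 (without control 1). The Hbb difference, which is also the globin mean, was -0.96 within slide 1 and 0.15 within slide 2, and -0.57 to -0.12 on leaving out 1 animal. Without 1 animal Alas2 ran between -0.56 and -0.16 and Slc4a1 between -0.09 and 0.05, positive without occlusion 1 and, at 0.03, without control 4. Slc4a1 was 0.12 within slide 2. Groups were separated for 1 gene within slide 1 (Hbb) and 1 within slide 2 (Slc4a1), where 37.1% and 30.9% of probes were. Replicate numbers did not pair the animals, since deviations of same-numbered animals correlated at -0.134 to 0.129. With the replicate block, differences were unchanged for Hbb at -0.40, Alas2 at -0.44 and Slc4a1 at -0.03 (limma adjusted p = 0.997 each), and 909 probes had an unadjusted p under 0.05. The 95% intervals then left out 0 for Hbb, at -0.75 to -0.06 (limma unadjusted p = 0.0289). They also did for Alas2, at -0.83 to -0.05 (limma unadjusted p = 0.0323), but not for Slc4a1, at -0.28 to 0.22.

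In the relations with Hbb, r without occlusion 1 and control 4 was 0.65 for Alas2, no longer passing, -0.02 for Slc4a1, 0.07 for haem and iron handling, -0.84 for erythroid genes, -0.12 for lymphocytes and -0.37 for relay neurons. Hba-a3 passed at 0.92 centred on slides (permutation, adjusted p = 0.0303) and 0.87 centred on groups (permutation, adjusted p = 0.0471). Slc4a1 passed at 0.83 centred on groups (permutation, adjusted p = 0.0471). These permutations shuffled all animals freely, although centring ties the values within a slide or group. The p-values of centred relations are therefore approximate. Haem synthesis changed sign, at 0.11 centred on groups and 0.14 on scanner ratios, as did cortical neurons at -0.07 centred on groups. Without 1 animal, r ran from 0.91 to 0.99 for Alas2, 0.56 to 0.95 for Hba-a3 and 0.54 to 0.89 for Slc4a1. Alas2 then did not pass without occlusion 1, occlusion 3, control 1 or control 4, and Hba-a3, Slc4a1, haem and iron handling, platelets and relay neurons passed without control 3. Haem and iron handling also passed centred on groups, at -0.82 (permutation, adjusted p = 0.0496, approximate for the same reason). For lists it ran from -0.20 to 0.08 (haem synthesis), -0.92 to -0.27 (haem and iron), -0.41 to 0.77 (erythroid), 0.28 to 0.82 (platelets), -0.02 to 0.32 (meninges), -0.04 to 0.91 (relay) and -0.48 to 0.22 (cortex). The cause of these changes was not tested. The second Slc4a1 probe was too dim on 8 of 8 arrays to give a level.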
